A study of Mus musculus with 4 samples.

Results

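The insulin-like growth factor (IGF) axis of the neonatal mouse heart was followed through 10 genes chosen by name: the ligands *Igf1* and *Igf2*, the receptors *Igf1r* and *Igf2r*, and the binding proteins *Igfbp2*, *Igfbp3*, *Igfbp4*, *Igfbp5*, *Igfbp6* and *Igfbp7*. They are 10 of the 24454 genes in the count table, were found there by their Entrez Gene identifiers, and had enough counts to be tested in 10 of 10 cases. RNA-seq of hearts at postnatal day 7 (P7) compared 2 control libraries (Ctrl, WH7 and WH8) with 2 libraries of hearts that overexpress *miR-128* (miR-128OE, WH9 and WH10). Both groups carried miR-128TetRE, a copy of *miR-128* in the Rosa26 locus behind a promoter that answers to the transactivator tTA. The miR-128OE mice also carried *α-MHC*-tTA, in which the cardiomyocyte promoter *α-MHC* drives tTA, and doxycycline (Dox) holds the system off. Ctrl mice lacked tTA, so an effect of tTA cannot be told apart from one of *miR-128*, and the Dox schedule of these hearts is not given in the sources used here. The labels do not say that the libraries of a group came from separate animals, so the p-values measure the spread between these libraries, which may be partly technical.

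IGF1 and IGF2 are small secreted growth factors that act through the tyrosine kinase receptor IGF1R, which signals through insulin receptor substrates, PI3K and AKT. IGF2R, the cation-independent mannose 6-phosphate receptor, does not signal growth but takes up IGF2 and delivers it to lysosomes. The binding proteins hold the ligands outside the cell and set how much reaches the receptor. In the mouse, *Igf2* is expressed from the paternal allele, beside the maternally expressed *H19*, and *Igf2r* from the maternal allele, under the control of the paternal transcript *Airn*. *Igf2* is a fetal growth factor whose RNA declines in most mouse tissues after birth, and IGF signaling is known for driving cardiomyocyte (CM) growth and proliferation.

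Since *miR-128* was the gene manipulated, the members were searched for matches to its seed, the stretch through which a microRNA pairs with its targets. The mature *miR-128-3p* has 21 bases, and its seed (bases 2 to 8) is in capitals below. A match was a 7mer-m8 (CACTGTG) or a 7mer-A1 (ACTGTGA) on the strand of the transcript, and the 2 forms overlap in the 8mer CACTGTGA. With 1 3′UTR taken per member, the longest in GENCODE M21 (GRCm38), *Igf1r* alone held a match. It is a 7mer-m8 in exon 21 of 21, which begins 810 bases after the stop codon in a 3′UTR of 7267 nucleotides. *Igf1* and *Igfbp3* held a match only in the 3′UTR of another annotated transcript. The 3 matches are shown with their surroundings because they are all that the members hold, with the match in capitals.
miR-128-3p (RefSeq, GRCm38.p6): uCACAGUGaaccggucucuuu
*Igf1r*, chr7:68227201-68227227, plus strand: tgaggcccccCACTGTGcccggctctc
*Igf1*, other transcript, chr10:87915442-87915460, plus strand: gaACTGTGAgcaagcaggc
*Igfbp3*, other transcript, chr11:7208060-7208086, minus strand: tgcaagcaagCACTGTGgggggtttta

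Of 13495 tested genes with an annotated 3′UTR, 4182 (31.0%) held a match in the longest one and 814 (6.03%) held an 8mer. When any annotated 3′UTR was allowed the share was 32.7%, with 3 of the 10 members, and 0 members held an 8mer. A match is a stretch of letters and was not tested as a site of action. Neither *miR-128* gene could be tested. *Mir128-1* stood at 0 in every library, and *Mir128-2* at 0, 0, 2 and 10 counts in WH7, WH8, WH9 and WH10.

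The libraries held between 8096870 and 14359838 counts. A detection floor of 3 counts came to 0.214 to 0.360 CPM, the unit of counts set to a common library total and scaled by TMM (trimmed mean of M values), which aligns the bulk of genes between libraries. Normalized counts below are scaled the same way, to the mean library size. The floors cover counting error only. Replicates differed by more than sampling noise, with a chi-square over its degrees of freedom of 12.2 between WH7 and WH8 and of 5.75 between WH9 and WH10. Condition and sex coincide in these libraries. *Xist*, the RNA of X inactivation, was read 14543 and 11339 times in the Ctrl hearts against 94 and 132 times in the miR-128OE hearts, and the Y-linked *Ddx3y* 13 and 7 against 1442 and 1768 times, so an effect of *miR-128* and one of sex cannot be told apart. The Ctrl library WH7 stood apart from WH8 in atrial myocyte genes. *Myl7*, the atrial regulatory light chain, had 25088 and 2341 counts in WH7 and WH8 and 10539 and 12265 in WH9 and WH10, and 6 of 6 atrial genes, chosen after their values were seen, were higher in WH7, by a median of 2.93 on the log2 scale. Cardiomyocyte markers were abundant in every library, with a summed level of 44422 and 47813 CPM in Ctrl and 53475 and 52708 CPM in miR-128OE libraries. Of the 8 markers, 3 were higher (*Myh6*, *Actn2* and *Pln*) and 2 lower (*Ryr2* and *Ttn*) in miR-128OE hearts. By the same test, given below, 16.5% of all genes tested were called higher and 15% lower.

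In P7 hearts with *miR-128* overexpression, *Igf2* RNA fell to 61.2% of its Ctrl level and *Igf1r* RNA to 70.3%, while *Igf2r* RNA rose to 122% and *Igfbp7* RNA to 140%. The other 6 members, *Igf1* and *Igfbp2* to *Igfbp6*, did not pass the test. By edgeR's quasi-likelihood test with adjustment over 14266 genes and a threshold of 0.05, 2 of 10 members were therefore higher and 2 of 10 lower, where 16.5% and 15% of all genes tested were called in those directions. In the same 2 higher and 2 lower members the libraries did not overlap between the conditions. Among all genes tested, both miR-128OE libraries were above both Ctrl libraries for 33.7% and below both for 34.4%. The median log2 fold change of the members was 0.01, against −0.01 for all genes tested. In heart tissue of mixed cells, fewer cells of a type and less RNA per cell cannot be told apart.

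**Figure D1:**
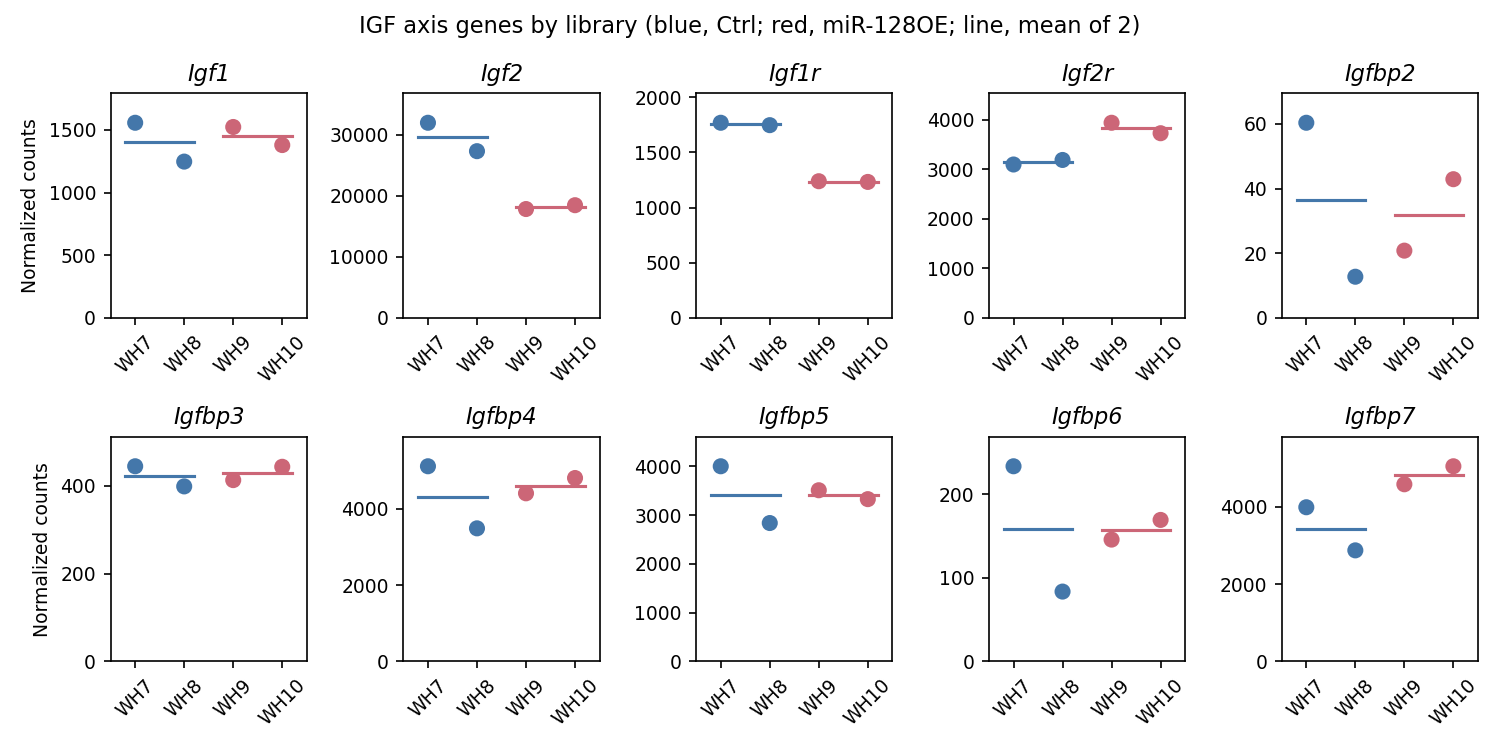
Normalized counts (TMM-scaled, vertical axes from 0) of the 10 IGF axis genes in the Ctrl libraries WH7 and WH8 (blue) and the miR-128OE libraries WH9 and WH10 (red), with a line at the mean of 2. *Igf2* and *Igf1r* sit lower in both miR-128OE libraries and *Igf2r* and *Igfbp7* higher, while WH7 and WH8 lie far apart for *Igfbp2* and *Igfbp6*.

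*Igf2* (chromosome 7 of GRCm38, 142650766 to 142666816, minus strand) was the ligand that changed. Normalized counts were 32005 in WH7 and 27344 in WH8, the Ctrl hearts, against 17851 in WH9 and 18479 in WH10, the miR-128OE hearts. Both miR-128OE libraries were below both Ctrl libraries, and the gap between the conditions was wider than that within either pair. The means were 29675 ± 3296 and 18165 ± 444 (SD, n = 2 each). On the log2 scale it changed by −0.71 (standard error 0.10, adjusted p = 0.00104 by edgeR), with a 95% interval from −0.94 to −0.48. Of all counts, *Igf2* took 0.283% and 0.239% in Ctrl against 0.145% and 0.153% in miR-128OE libraries.

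*Igf1* (chromosome 10, 87858265 to 87937042, plus strand), the ligand that mediates growth after birth under growth hormone, had 1556 and 1247 normalized counts in Ctrl and 1523 and 1379 in miR-128OE libraries. Both miR-128OE libraries lay between the Ctrl libraries. On the log2 scale it differed by 0.04 (standard error 0.11, adjusted p = 0.790 by edgeR), with an interval from −0.20 to 0.29 that leaves room for modest change either way. The ratio of *Igf2* to *Igf1*, taken per kilobase of exon within a library and so free of library scaling, was 35.6 and 38.0 in Ctrl and 20.3 and 23.2 in miR-128OE libraries. It was lower in both miR-128OE libraries, by 0.76 on the log2 scale. The two-sided exact permutation test gave p = 0.333, the smallest that 2 against 2 libraries can give. Per kilobase, *Igf2* made up 97.3% and 97.4% of the summed ligand RNA in Ctrl and 95.3% and 95.9% in miR-128OE libraries.

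The receptors moved in opposite directions. *Igf1r* (chromosome 7, 67952827 to 68233668, plus strand), the member with the seed match shown above, had 1769 and 1747 normalized counts in Ctrl and 1239 and 1232 in miR-128OE libraries. Its replicates were the closest of all members in both groups, and the groups did not overlap. The means were 1758 ± 15.4 in Ctrl and 1235 ± 4.54 in miR-128OE libraries (SD, n = 2 each). On the log2 scale it changed by −0.51 (standard error 0.08, adjusted p = 0.00125 by edgeR, 95% interval −0.68 to −0.34).

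*Igf2r* (chromosome 17, 12682406 to 12769664, minus strand) had 3098 and 3190 normalized counts in Ctrl and 3942 and 3730 in miR-128OE libraries. Both miR-128OE libraries were above both Ctrl libraries. The means were 3144 ± 64.8 and 3836 ± 149 (SD, n = 2 each), and the log2 difference was 0.29 (standard error 0.08, adjusted p = 0.0216 by edgeR, 95% interval 0.11 to 0.46). The call was lost when TMM factors were left out (log2 fold change 0.19, adjusted p = 0.0830 by edgeR). It was also lost without WH9 (adjusted p = 0.207) or without WH10 (adjusted p = 0.0894 by edgeR), with log2 fold changes of 0.26 and 0.34. Per kilobase, *Igf2r* exceeded *Igf1r* 3.16-fold and 3.29-fold in Ctrl and 5.74-fold and 5.46-fold in miR-128OE libraries. The ratio of *Igf2* to *Igf2r*, the ligand to the receptor that clears it, was 16.8 and 13.9 in Ctrl and 7.37 and 8.06 in miR-128OE libraries. These ratios too did not overlap between the conditions, and the exact permutation test gave p = 0.333 for each, again the smallest possible.

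*Igfbp7* (chromosome 5, 77349240 to 77408041, minus strand), a secreted protein of vessel walls and stroma that binds IGFs with low affinity, was the binding protein that changed. It had 3994 and 2876 normalized counts in Ctrl and 4589 and 5056 in miR-128OE libraries. Both miR-128OE libraries were above both Ctrl libraries, although the Ctrl pair was spread by 0.47 on the log2 scale, close to the difference between the conditions. The means were 3435 ± 790 and 4822 ± 330 (SD, n = 2 each), and the log2 difference was 0.49 (standard error 0.14, adjusted p = 0.0240 by edgeR, 95% interval 0.18 to 0.79). The call was lost with total counts (log2 fold change 0.39, adjusted p = 0.0642), without WH9 (0.57, adjusted p = 0.0794) and without WH10 (0.43, adjusted p = 0.141 by edgeR). Without WH7 the log2 fold change was 0.75 and without WH8 it was 0.28, and the call was kept in both cases. *Igfbp7* RNA was 59.9% and 61.8% of the summed binding protein level per kilobase in Ctrl, and 67.2% and 68.1% in miR-128OE libraries. Its last exon overlaps *Polr2b* on the other strand. *Polr2b* did not pass the test (log2 fold change 0.15, adjusted p = 0.439 by edgeR).

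Markers of the vessel wall were read beside *Igfbp7*, and as lists they did not move 1 way. The summed level of 8 smooth muscle and pericyte markers was 1935 and 1794 CPM in Ctrl and 2295 and 2646 CPM in miR-128OE libraries, with 2 markers higher (*Acta2* and *Rgs5*), 1 lower (*Myh11*) and a median log2 fold change of 0.05. The rise of the sum was that of *Acta2*, and the other 7 markers summed to 1308 and 1215 CPM against 1235 and 1393 CPM, so these sums overlapped. For 8 endothelial markers the sums were 1623 and 1622 CPM against 1817 and 1709 CPM, with 2 higher (*Pecam1* and *Cdh5*), 1 lower (*Emcn*) and a median of −0.02. These counts stand beside 16.5% of all genes tested called higher and 15% called lower. The part of these cells in the *Igfbp7* result was not tested.

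*Igfbp4* (chromosome 11, 99041244 to 99054392, plus strand) and *Igfbp5* (chromosome 1, 72857932 to 72874884, minus strand), binding proteins made by fibroblasts and smooth muscle cells, were abundant but did not pass the test. *Igfbp4* had 5118 and 3490 normalized counts in Ctrl and 4409 and 4810 in miR-128OE libraries. *Igfbp5* had 4001 and 2837 in Ctrl and 3509 and 3326 in miR-128OE libraries. For both genes, the miR-128OE libraries lay between WH7 and WH8. The log2 fold changes were 0.10 for *Igfbp4* (standard error 0.15, adjusted p = 0.659, interval −0.24 to 0.44) and −0.003 for *Igfbp5* (standard error 0.14, adjusted p = 0.988 by edgeR, interval −0.31 to 0.31).

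*Igfbp6* (chromosome 15, 102144362 to 102149511, plus strand), which prefers IGF2 over IGF1, had 233 and 83.4 normalized counts in Ctrl and 146 and 169 in miR-128OE libraries. *Igfbp2* (chromosome 1, 72824503 to 72852474, plus strand), a binding protein of fetal tissues whose end lies 5457 bases from that of *Igfbp5*, was the lowest member. It was read 66 and 9 times in WH7 and WH8, and 21 and 51 times in WH9 and WH10. The exact Poisson 95% intervals, which cover counting error only, were 51.0 to 84.0 and 4.12 to 17.1 in Ctrl, and 13.0 to 32.1 and 38.0 to 67.1 in miR-128OE libraries. For both genes the Ctrl libraries enclosed the miR-128OE libraries, and for *Igfbp2* the intervals of WH7 and WH8 did not overlap. The log2 fold changes were −0.06 for *Igfbp6* (standard error 0.35, adjusted p = 0.906, interval −0.84 to 0.71) and −0.28 for *Igfbp2* (standard error 0.57, adjusted p = 0.742 by edgeR, interval −1.55 to 0.99). Differences of more than 1.5-fold were thus not excluded by the intervals for either gene.

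*Igfbp3* (chromosome 11, 7206086 to 7213923, minus strand), the main carrier of IGFs in blood, had 444 and 399 normalized counts in Ctrl and 413 and 443 in miR-128OE libraries. The libraries overlapped, and differed by 0.02 on the log2 scale (standard error 0.11, adjusted p = 0.914 by edgeR, interval −0.22 to 0.26).

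Which Ctrl library is kept decides what 3 of these binding proteins show. Without WH7, *Igfbp4* (log2 fold change 0.40, adjusted p = 0.00218), *Igfbp5* (0.27, adjusted p = 0.0199) and *Igfbp6* (0.92, adjusted p = 0.00550 by edgeR) were called higher in miR-128OE hearts. Without WH8, *Igfbp5* (−0.22, adjusted p = 0.0395) and *Igfbp6* (−0.56, adjusted p = 0.0164 by edgeR) were called lower, and *Igfbp4* was not called (−0.15, adjusted p = 0.185). The lone library of a group is assumed in these fits to vary like the pair of the other. *Igf2* (−0.81 to −0.59) and *Igf1r* (−0.51 to −0.49) kept their calls with each of the 4 libraries left out.

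**Figure D2:**
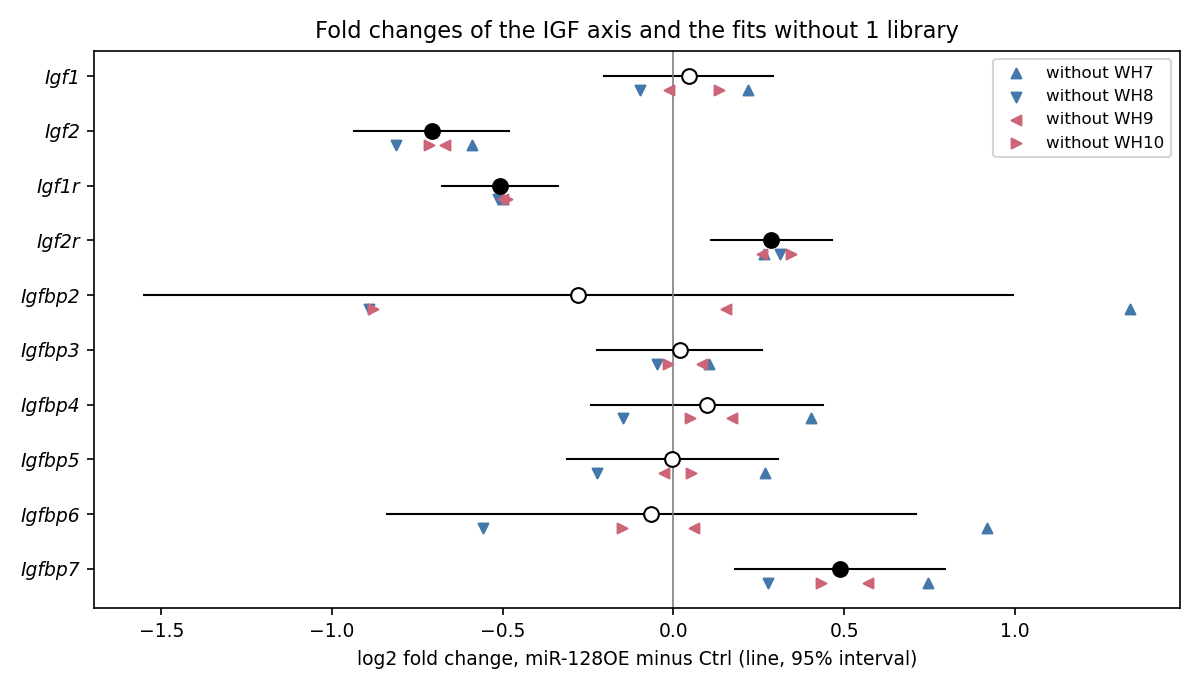
Log2 fold change of each IGF axis gene, miR-128OE minus Ctrl (horizontal axis), as a circle with its 95% interval, filled where the adjusted p was under 0.05, and as triangles for the fits without 1 library. The triangles stay on 1 side of 0 for *Igf2*, *Igf1r*, *Igf2r* and *Igfbp7* and fall on both sides for the other 6 genes.

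The Ctrl libraries differed in 1 direction across the binding proteins. All 6 were higher in WH7 than in WH8, and so were both ligands and *Igf1r*, 9 of 10 members in all. Among the 14266 genes tested, 6650 were higher in WH7, with a median difference of −0.02 on the log2 scale. For the binding proteins, the differences were 2.20 for *Igfbp2*, 1.48 for *Igfbp6*, 0.55 for *Igfbp4*, 0.50 for *Igfbp5*, 0.47 for *Igfbp7* and 0.16 for *Igfbp3* on the log2 scale. The median absolute difference over all genes tested was 0.167 between WH7 and WH8 and 0.120 between WH9 and WH10, so 5 of the 6 binding proteins were spread more than the typical gene. *Igf1r* (0.02) and *Igf2r* (−0.04) were spread less.

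Markers of several cell types differed between WH7 and WH8 in the same direction. Of 8 fibroblast markers, 8 were higher in WH7, by a median of 0.59 on the log2 scale, with summed levels of 9950 and 6464 CPM in WH7 and WH8 and 8764 and 9497 CPM in WH9 and WH10. Of these 8, *Lum* was called higher in miR-128OE hearts and 0 were called lower. All 8 epicardial and mesothelial markers were higher in WH7, by a median of 1.28, with sums of 148 and 68.5 CPM in Ctrl and 85.8 and 78.2 CPM in miR-128OE libraries, and 0 of 8 were called between the conditions. The 6 atrial genes had sums of 5944 and 711 CPM in Ctrl and 2143 and 2748 CPM in miR-128OE libraries, with 0 of 6 called. Calls between the conditions covered 16.5% (higher) and 15% (lower) of all genes tested. Endothelial markers did not share the pattern, with 4 of 8 higher in WH7. The part of these cells in the spread of the binding proteins was not tested.

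**Figure D3:**
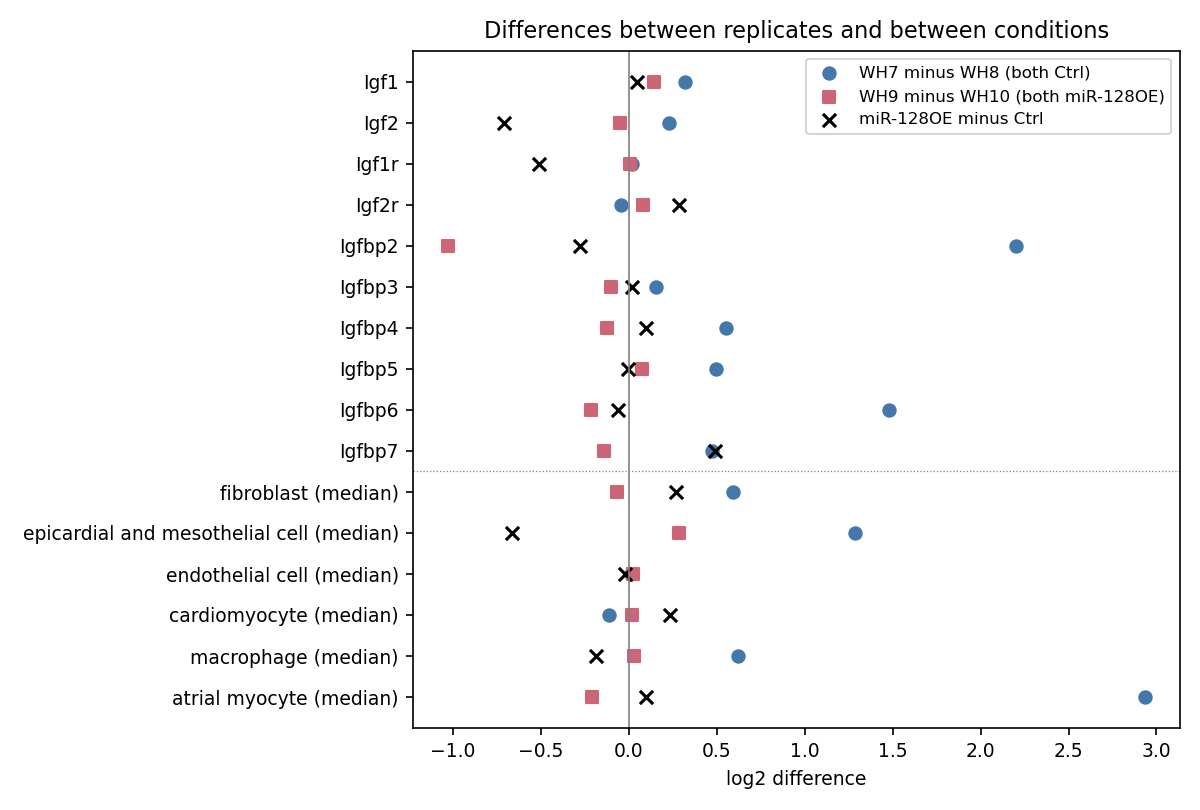
Log2 difference (horizontal axis) between the Ctrl libraries (WH7 minus WH8, circles), between the miR-128OE libraries (WH9 minus WH10, squares) and between the conditions (crosses) for each IGF axis gene, and as medians over marker lists below the dotted line. For *Igf2*, *Igf1r* and *Igf2r* the cross lies farther from 0 than either replicate difference, while for *Igfbp2*, *Igfbp6* and the atrial list the circle lies farthest out.

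Levels were compared between members per kilobase of merged exon, as TMM-scaled CPM per kilobase. In Ctrl hearts *Igf2* came first, with 406 to 475, followed by *Igfbp7* with 202 to 281, *Igfbp4* with 67.1 to 98.5, *Igfbp5* with 40.1 to 56.6 and *Igf2r* with 28.3 to 29.1. *Igfbp6* (6.37 to 17.8), *Igf1* (10.7 to 13.3) and *Igfbp3* (10.8 to 12.1) overlapped as neighbors and did not differ beyond their spread. *Igf1r* had 8.84 to 8.95 and *Igfbp2* 0.585 to 2.78. *Igf2* thus stood 87th by level per kilobase among 14164 tested genes with a gene model in Ctrl hearts, and *Igf1r* 4870th.

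In miR-128OE hearts *Igfbp7* (322 to 355) stood above *Igf2* (265 to 274), and per kilobase of merged exon their ranges did not overlap in either condition. The order of *Igfbp4* (84.8 to 92.5), *Igfbp5* (47.0 to 49.6) and *Igf2r* (34.0 to 36.0) was the same as in Ctrl. *Igf1* (11.8 to 13.1), *Igfbp6* (11.1 to 12.9) and *Igfbp3* (11.2 to 12.0) again overlapped as neighbors. *Igf1r* had 6.23 to 6.27 and *Igfbp2* 0.956 to 1.97. In rank among all genes *Igf2* went from place 87 to 182, *Igfbp7* from 170 to 142 and *Igf1r* from 4870 to 6229. These levels rest on annotated exon length, and with the longest transcript as length 6 of 10 members held their place in the Ctrl order. For *Igf2* the longest transcript has 4722 bases against 5723 of merged exon, and for *Igfbp7* 1200 against 1209. With the shorter lengths the ranges of *Igfbp7* and *Igf2* overlap in miR-128OE hearts, so their separation there depends on the length used.

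**Figure D4:**
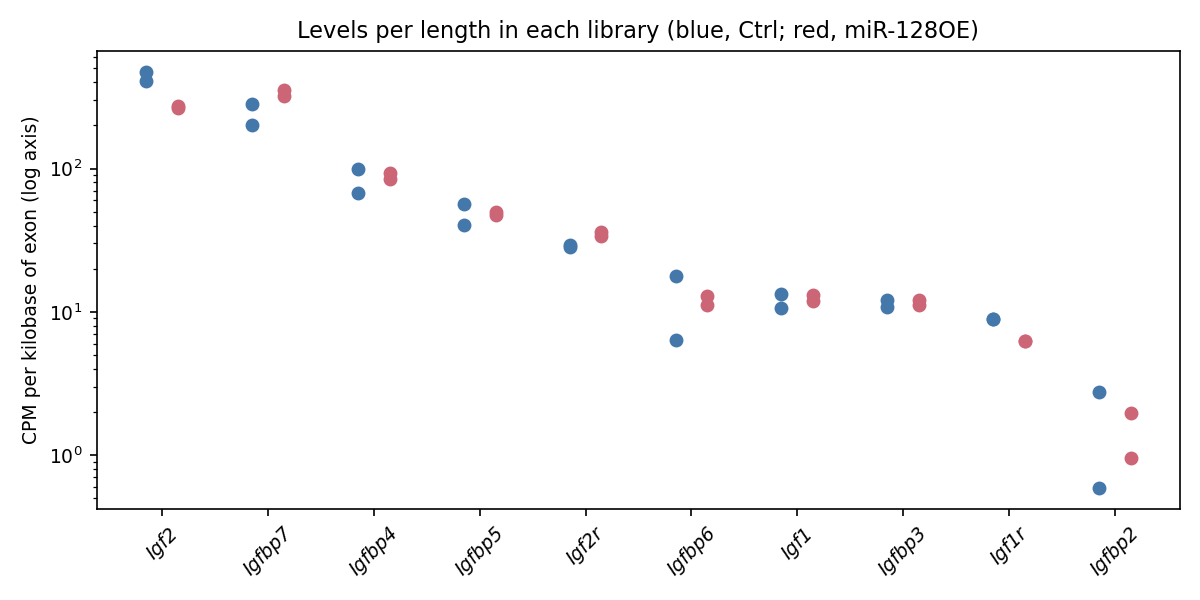
Level of each IGF axis gene in TMM-scaled CPM per kilobase of merged exon (log axis) in each Ctrl library (blue) and miR-128OE library (red), in the order of the Ctrl means. By this length *Igf2* leads in Ctrl with 406 to 475, *Igfbp7* leads in miR-128OE libraries with 322 to 355, and *Igfbp2* is lowest in both.

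The transcripts that share the imprinted loci were read beside the members. *H19* (chromosome 7, 142575529 to 142578143, minus strand), a noncoding RNA whose gene lies 72622 bases from *Igf2* and shares its enhancers, had 24890 and 20926 normalized counts in Ctrl and 14655 and 15058 in miR-128OE libraries. Like *Igf2*, it was lower in both miR-128OE libraries, and fell by 0.62 on the log2 scale (standard error 0.10, adjusted p = 0.00206 by edgeR). The ratio of *H19* to *Igf2* counts was 0.778 and 0.765 in Ctrl and 0.821 and 0.815 in miR-128OE libraries and so differed by 0.08 on the log2 scale, much less than either transcript. *Igf2os*, antisense to *Igf2* with exons that overlap, had 71.3 and 96.1 normalized counts in Ctrl and 44.6 and 59.7 in miR-128OE libraries, and did not pass the test (log2 fold change −0.65, adjusted p = 0.0858 by edgeR). *Mir483*, which lies within *Igf2*, had 2 counts or fewer in every library, and *Ins2*, the insulin gene of the locus, 5 or fewer, so neither was tested. Whether the reads were counted by strand is not given in the sources used here, so reads of *Igf2* and *Igf2os* cannot be told apart.

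*Airn* (chromosome 17, 12741311 to 12860136, plus strand), the noncoding RNA that runs antisense across the start of *Igf2r* with no shared exon sequence, had 335 and 332 normalized counts in Ctrl and 230 and 257 in miR-128OE libraries. It moved opposite to *Igf2r*, with both miR-128OE libraries below both Ctrl libraries and a log2 difference of −0.45 (standard error 0.12, adjusted p = 0.0184 by edgeR). *Slc22a3*, a cation transporter of the same imprinted cluster, was read 10 and 6 times in Ctrl against 29 and 40 times in miR-128OE libraries. It was called higher, by 1.80 on the log2 scale (standard error 0.40, adjusted p = 0.00849 by edgeR). *Slc22a2*, its neighbor, had 2 counts or fewer in every library.

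Beyond the members, 49 genes that feed into or follow the IGF axis were read from a list by role. Of the 45 with enough counts to test, 8 (*Htra1*, *Irs1*, *Grb14*, *Akt1*, *Akt2*, *Eif4ebp1*, *Gsk3b* and *M6pr*) were higher and 8 (*Pik3ca*, *Tsc1*, *Ghr*, *Socs2*, *Igf2bp1*, *Igf2bp2*, *Igf2bp3* and *Gnptab*) were lower. The median over these 45 was 0.09 on the log2 scale, with −0.01 for all genes tested. The list was read beside the same 16.5% and 15% of all genes called higher and lower. *Igfbp1*, a binding protein of the liver whose gene lies 3539 bases from *Igfbp3*, and the adaptor *Irs4* had 0 counts in every library, which allows a level of up to 0.360 CPM in the shallowest. *Insrr* and *Lin28a* had 4 counts or fewer.

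The RNA-binding proteins named for the *Igf2* transcript, which bind its leader, were all called lower, beside 15% of all genes tested. *Igf2bp2* had 405 and 420 normalized counts in Ctrl and 252 and 246 in miR-128OE libraries, with a log2 fold change of −0.72 (adjusted p = 0.00138 by edgeR). *Igf2bp1* had 74.1 and 56.5 against 37.6 and 32.8 (−0.91, adjusted p = 0.0314 by edgeR), and *Igf2bp3* had 303 and 358 against 252 and 244 (−0.40, adjusted p = 0.0378 by edgeR). All 3 were lower in both miR-128OE libraries, as *Igf2* was and as were 34.4% of all genes tested. *Igf2bp2* kept its call in 13 of 13 alternative fits. *Igf2bp1* and *Igf2bp3* each lost theirs in 5, namely the DESeq2 test, the offset for GC content and length, without WH9, without WH10, and without WH7 for *Igf2bp1* or without WH8 for *Igf2bp3*. *Lin28b* and *Hmga2*, which act upstream of these proteins, did not pass the test (log2 fold changes −0.20 and −0.30).

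In the growth hormone input to *Igf1*, 2 of 5 genes were lower and 0 higher, with a median log2 fold change of 0.09. The share of all genes tested was 15% called lower and 16.5% called higher. *Stat5a* (0.33), *Stat5b* (0.27) and *Jak2* (0.09) had positive log2 fold changes and were not called. *Socs2*, a target and feedback inhibitor of growth hormone signaling, had 2780 and 2856 normalized counts in Ctrl and 2089 and 2009 in miR-128OE libraries (log2 fold change −0.46, adjusted p = 0.00214 by edgeR). *Ghr*, the growth hormone receptor, fell by 0.26 on the log2 scale (adjusted p = 0.0434 by edgeR), a call lost with the DESeq2 test, with the offset, and without WH8, WH9 or WH10. In the sorting route that *Igf2r* serves, *Gnptab*, a subunit of the enzyme that starts the mannose 6-phosphate tag, had 583 and 748 normalized counts in Ctrl and 384 and 393 in miR-128OE libraries (−0.77, adjusted p = 0.00201 by edgeR). *M6pr*, the smaller mannose 6-phosphate receptor, was higher like *Igf2r* (0.35, adjusted p = 0.0215 by edgeR), a call lost with total counts, with the DESeq2 test, and without WH9 or WH10. *Gnptg* did not pass the test (−0.02).

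Downstream of *Igf1r*, the receptor adaptors and AKT kinases included the higher genes with the smallest p-values. *Irs1*, the substrate that links the receptor to PI3K, had 394 and 386 normalized counts in Ctrl and 622 and 565 in miR-128OE libraries (log2 fold change 0.60, adjusted p = 0.00213 by edgeR). *Grb14*, an adaptor that inhibits the insulin receptor, had 884 and 807 against 1387 and 1215 (0.62, adjusted p = 0.00149 by edgeR). *Akt1* had 2957 and 2926 against 4227 and 4142 (0.51, adjusted p = 0.00131 by edgeR), and *Akt2* rose by 0.38 on the log2 scale (adjusted p = 0.00635 by edgeR). *Pik3ca*, the catalytic subunit that produces the signal for AKT, was lower (−0.35, adjusted p = 0.00900 by edgeR). For each of these genes the miR-128OE libraries lay wholly on 1 side of the Ctrl libraries. The same was true of many genes, with 33.7% of all genes tested wholly above and 34.4% wholly below.

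The insulin receptor *Insr* did not pass the test (−0.24, adjusted p = 0.107 by edgeR), nor did the adaptors *Irs2* (0.37), *Grb10* (−0.003) and *Shc1* (−0.06). Of 10 genes of mTOR and growth output, 2 were higher and 1 was lower, beside 16.5% and 15% of all genes tested. *Eif4ebp1*, a repressor of translation that mTOR inactivates, rose by 0.49 on the log2 scale (adjusted p = 0.00294 by edgeR) and *Gsk3b*, a kinase that AKT inhibits, by 0.34 (adjusted p = 0.00996 by edgeR). *Tsc1*, which restrains mTOR, was the lower gene (log2 fold change −0.50, adjusted p = 0.0206 by edgeR), a call lost with the offset and without WH8, WH9 or WH10.

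Among other proteins that bind IGFs or act on the binding proteins, 1 of 7 tested was called. Over all genes tested, 16.5% were called higher and 15% lower. *Htra1*, a secreted protease with a domain related to the binding proteins, had 1289 and 817 normalized counts in Ctrl and 1599 and 1674 in miR-128OE libraries (log2 fold change 0.62, adjusted p = 0.0192 by edgeR). Like *Igfbp7*, it was higher in WH7 than in WH8, by 0.66 on the log2 scale. *Pappa*, the protease that cleaves IGFBP4 and IGFBP5, was read 31 and 26 times in Ctrl against 18 and 14 times in miR-128OE libraries, and did not pass the threshold (log2 fold change −1.13, adjusted p = 0.0510 by edgeR). *Stc1* and *Stc2*, which inhibit that protease, had log2 fold changes of 0.44 (adjusted p = 0.0627) and 0.77 (adjusted p = 0.0592 by edgeR) and were not called. Of the 16 calls in the list of 49, 15 were kept without WH7, 13 without WH8, 6 without WH9 and 7 without WH10. Over 13 alternative fits, 5 calls (*Irs1*, *Grb14*, *Akt1*, *Igf2bp2* and *Gnptab*) were never lost. *Htra1* lost its call with the DESeq2 test and, like *Pik3ca* and *Gsk3b*, without WH9 or WH10, while *Akt2* and *Eif4ebp1* lost theirs without WH9 and *Socs2* without WH10.

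**Figure D5:**
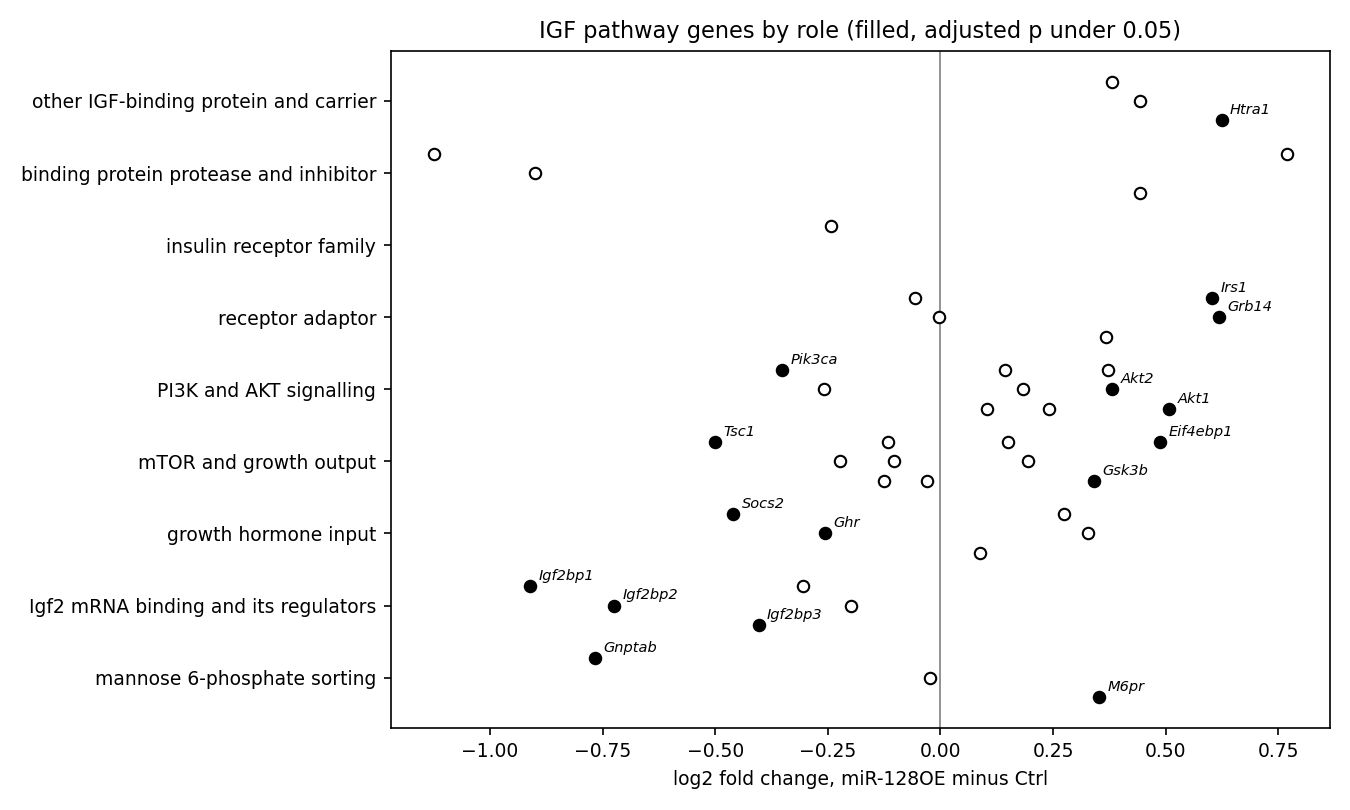
Log2 fold change, miR-128OE minus Ctrl (horizontal axis), of the 45 tested genes of the IGF pathway list by role, filled and named where the adjusted p was under 0.05. The 3 filled genes among the *Igf2* mRNA-binding proteins and their regulators lie below 0, from −0.91 to −0.40, and the filled adaptors and AKT kinases lie above 0, from 0.38 to 0.62.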

How the data were processed

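RNA-seq was analyzed of P7 hearts, with 2 Ctrl and 2 miR-128OE libraries grouped by the labels. The authors aligned reads to mm10 (GRCm38) with TopHat2, counted them on known genes and deposited raw counts per gene and library. The gene models, the use of strand and the rule for shared reads are not given in the sources used here. Of 24454 identifiers, 24381 were matched to a symbol. From the counts, edgeR 4.0.16 (R 4.3.3) was used, the package named in the study's methods. Its settings were chosen here, with filterByExpr (10 counts, 15 in total), TMM factors and the two-sided quasi-likelihood test, and Benjamini-Hochberg adjustment over 14266 genes. The fit was tested on simulated data, in which some genes were changed by 1 or 2 on the log2 scale, more than any member here. Most changed genes were recovered, and recovery of smaller changes was not tested. The false share of calls exceeded the nominal threshold, so calls near it are less certain than their adjusted p. Standard errors were derived from each fold change and its F statistic. Normalized counts are TMM-scaled to the mean library size.

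The members and the lists (pathway, neighbors and markers of 10 cell types) were chosen with earlier results of these data known. Named genes are the 10 members, the pathway genes past the threshold or under the floor, transcripts that overlap or are imprinted with a member, and others named as examples after their values were seen. Gene models and 3′UTRs came from GENCODE M21, and the microRNA from RefSeq. Alternatives were other scalings, edgeR's exact and likelihood ratio tests, DESeq2 1.42.0, other filters, a 1.5-fold minimum, a loess offset for GC content and length (span 0.5) and each library left out. Summaries used Python 3.11.15 and scipy 1.17.1. Some listed genes and 1 marker list are not reported here. P1 and P28 hearts were not analysed here.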

Additional observations from a re-analysis of the deposited data

How the results depend on the processing

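*Igf2* (log2 fold change −0.81 to −0.65) and *Igf1r* (−0.61 to −0.34) kept their direction and their call in 9 of 9 alternative scalings, tests, filters and offsets. *Igf2r* and *Igfbp7* kept theirs in 8 of 9, and the exception was total counts, under which 0 members were called higher. Total counts shifted all genes, whose median went from −0.01 to −0.11 on the log2 scale, and the higher share of calls went from 52.3% to 35.3%. Upper-quartile factors gave a share of 44.2%. With a 1.5-fold minimum as well, 0 members were higher and 1, *Igf2*, was lower, and 3 pathway genes were higher and 3 lower. With the DESeq2 test 5 pathway genes were lower, and with the GC and length offset 14 were higher and 4 lower. With a library left out, 0 to 5 members were called higher and 2 to 4 lower, and 3 to 12 pathway genes higher and 2 to 9 lower. With a library left out, the log2 difference in the ratio of *Igf2* to *Igf1* stayed between −0.86 and −0.66. With the longest transcript as length, 6 of 10 members held their place by level, and the seed matches went from 1 member to 3 with any annotated 3′UTR and to 0 with the 8mer. Of the members that did not pass the test, *Igf1*, *Igfbp3*, *Igfbp4* and *Igfbp5* changed sign near 0. *Igfbp2* (−0.38 to −0.22) and *Igfbp6* (−0.19 to −0.01) stayed below 0 in 9 of 9 alternatives. *Igf1* was −0.0021 with upper-quartile factors and −0.056 with total counts, and *Igfbp3* was −0.028 and −0.081. *Igfbp4* was −0.0035 with total counts. *Igfbp5* was 0.00052 with DESeq2's size factors, 0.0014 with its test, 0.0073 with no filter and 0.065 with the offset. With a library left out, the log2 fold change ranged from −0.10 to 0.22 for *Igf1*, −0.89 to 1.34 for *Igfbp2*, −0.049 to 0.11 for *Igfbp3*, −0.15 to 0.40 for *Igfbp4*, −0.22 to 0.27 for *Igfbp5* and −0.56 to 0.92 for *Igfbp6*. No paired analysis was possible because the labels give no replicate numbers shared between the groups. Apart from the values set by the construction of an alternative, the cause of these changes was not tested. *Igfbp2* had the fewest counts of the members in every library, 9 to 66, and its Poisson intervals in WH7 and WH8 did not overlap.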

Other observations

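Further cell type markers were read in the same libraries. Of 8 macrophage markers, 7 were higher in WH7 than in WH8, by a median of 0.62 on the log2 scale, and 0 of 8 were called between the conditions. Their summed levels were 126 and 85.8 CPM in Ctrl and 94.2 and 96.9 CPM in miR-128OE libraries. Among the 14266 genes tested, 6650 were higher in WH7 than in WH8. Hepatocyte markers had sums of 17.0 and 10.2 CPM in Ctrl and 11.2 and 12.4 CPM in miR-128OE libraries. In WH7, WH8, WH9 and WH10, *Apoa1* had 45, 43, 46 and 51 counts and *Ahsg* 131, 15, 48 and 75. *Alb*, which encodes albumin, had 0 counts in 3 libraries and 3 counts in WH10, *Fga* had 0 in all 4, and 0 of 4 tested markers were called. Over all genes tested, 16.5% were called higher and 15% lower.

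Brown adipocyte markers included 4 of 7 tested genes that were higher in miR-128OE hearts (*Ucp1*, *Cidea*, *Adipoq* and *Ppara*). The share called higher over all genes tested was 16.5%. *Ucp1*, the uncoupling protein of brown fat, was read 56 and 3 times in Ctrl against 253 and 189 times in miR-128OE libraries. Summed over 8 markers, most of it *Fabp4*, the levels were 1602 and 1676 CPM in Ctrl and 1725 and 1593 CPM in miR-128OE libraries. Among erythroid markers *Alas2* was higher, with sums of 44.9 and 32.2 CPM against 79.1 and 72.3 CPM. The globin genes *Hba-a1*, *Hba-a2*, *Hbb-bs* and *Hbb-bt* had 0 counts in every library, while *Alas2* had 487, 215, 831 and 899. The gene models and the rule for shared reads are not given in the sources used here. Whether globin RNA was absent thus cannot be told from these zeros.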
